A study of Mus musculus with 30 samples.

Results

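The UDP-glucuronosyltransferase (UGT) gene clusters of the mouse were examined here as integration targets of therapeutic transposons in the liver. They were taken as 2 windows of the GRCm39 genome, the Ugt1a window on chromosome 1 from 87.9 to 88.3 Mb and the Ugt2 window on chromosome 5 from 86.9 to 87.9 Mb. A site record is a position and strand listed for a liver. The windows held 4789 of 2181734 site records (0.220%). Of these, 1327 were PB and 419 SB records in the Ugt1a window, and 2161 were PB and 882 SB records in the Ugt2 window. The windows were chosen with the site densities of these same livers known, so density in PB and SB, inside and outside the windows, and what follows from it is given as a description with no test. Tests are given on support and on strand, which the choice did not use, although support may rise with density. Density is tested only in a contrast between sets of PB livers. That contrast was not used for the choice, but it is built on the same densities, so no support is taken from it. Members just outside the windows are given with the densities at their edges.

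The livers came from Fah knockout mice treated in vivo with a therapeutic vector of either the piggyBac (PB, 17 livers) or the Sleeping Beauty (SB, 13 livers) system. Loss of Fah, which encodes the enzyme that ends the tyrosine degradation pathway, models tyrosinemia type I. The knockout is shared by all 30 livers, so there is no group with an intact Fah gene or without a vector. Strain, age, sex, dose and monitoring time are not given in the labels. DNA came from lysates of whole livers, so the cell type that carried a site is not known, and hepatocyte markers were not measured. Insertion sites were read by streptavidin-based enrichment sequencing (SBE-seq), a nested PCR from the transposon end into the neighbouring genome. Nothing in the labels says whether livers were processed together, and the p-values below measure the spread between livers only. Livers held 16364 to 124238 nuclear sites in PB and 4893 to 120219 in SB. SB liver 13, the smallest, had only 3 sites in the Ugt1a window and 2 in the Ugt2 window. Several SB results that include it are given without it too.

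UGT enzymes sit in the membrane of the endoplasmic reticulum and transfer glucuronic acid from UDP-glucuronic acid to bilirubin, steroids, bile acids and drugs, which makes them soluble enough to leave in bile or urine. The liver is a main site of this reaction. The Ugt1a genes share their last exons, and each has its own promoter and first exon. Ugt1a1, next to the shared exons, conjugates bilirubin. Most Ugt2b genes are complete genes of their own, while Ugt2a1 and Ugt2a2 share exons as the Ugt1a genes do. In the order of a RefSeq gene table of build GRCm38.p6, the 9 Ugt1a genes run Ugt1a10, Ugt1a9, Ugt1a8, Ugt1a7c, Ugt1a6b, Ugt1a6a, Ugt1a5, Ugt1a2 and Ugt1a1, with Usp40 on one side and Mroh2a on the other. The 10 Ugt2 genes run Ugt2b34, Ugt2b1, Ugt2b35, Ugt2b36, Ugt2b5, Ugt2b37, Ugt2a3, Ugt2b38, Ugt2a1 and Ugt2a2, followed by the sulfotransferase genes Sult1b1, Sult1d1 and Sult1e1. That table is of another build than the sites, so no site was assigned to a gene, exon, intron, untranslated region or promoter, and which neighbours lie inside the windows was not read.

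PB transposase inserts at TTAA and SB transposase at TA. The target letters are shown here in 4 UGT promoters because the clusters are compared between vectors that need different letters. Promoter sequences from RefSeq (GRCm38.p6) were matched by symbol for 18 of the 19 UGT genes. The 250 bases before the start of each gene are used, written 5′ to 3′ along the gene, and capitals mark TTAA. TTAA reads the same on both strands, and overlapping matches count separately. Ugt1a1 lies at chr1:88211709-88211958 on the plus strand, Ugt1a9 at chr1:88070529-88070778 on the plus strand, Ugt2b1 at chr5:86926504-86926753 on the minus strand and Ugt2b38 at chr5:87424204-87424453 on the minus strand. These coordinates are of GRCm38.p6 and cannot be set beside the GRCm39 site positions given below. Ugt1a1 is shown for its role in bilirubin conjugation, Ugt1a9 and Ugt2b38 for the most TTAA of their clusters, and Ugt2b1 as one of those with a single TTAA, which Ugt2b34, Ugt2b36, Ugt1a7c and Ugt1a8 also hold.
Ugt1a1: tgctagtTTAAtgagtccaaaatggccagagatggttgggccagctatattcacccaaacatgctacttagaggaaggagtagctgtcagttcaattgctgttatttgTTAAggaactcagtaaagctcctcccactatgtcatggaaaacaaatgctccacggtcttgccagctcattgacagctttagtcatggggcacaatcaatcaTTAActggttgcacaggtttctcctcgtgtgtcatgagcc
Ugt1a9: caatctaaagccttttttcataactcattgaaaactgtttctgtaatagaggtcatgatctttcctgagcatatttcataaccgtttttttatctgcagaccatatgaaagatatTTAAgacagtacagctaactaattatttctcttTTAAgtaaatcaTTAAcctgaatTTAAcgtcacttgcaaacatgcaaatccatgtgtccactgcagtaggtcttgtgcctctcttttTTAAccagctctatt
Ugt2b1: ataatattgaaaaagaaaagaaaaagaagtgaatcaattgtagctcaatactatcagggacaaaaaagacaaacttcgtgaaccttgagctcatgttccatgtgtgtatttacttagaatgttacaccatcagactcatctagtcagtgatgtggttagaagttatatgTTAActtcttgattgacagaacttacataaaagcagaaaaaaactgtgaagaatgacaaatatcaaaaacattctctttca
Ugt2b38: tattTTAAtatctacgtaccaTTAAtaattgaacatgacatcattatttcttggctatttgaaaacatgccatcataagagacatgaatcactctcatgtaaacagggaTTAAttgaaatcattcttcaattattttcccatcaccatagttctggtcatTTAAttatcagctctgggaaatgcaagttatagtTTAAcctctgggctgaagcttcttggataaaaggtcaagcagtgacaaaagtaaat

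All 18 matched UGT promoters held TTAA, 46 in all, and 13 held 2 or more. The Ugt1a1 stretch has 3, Ugt1a9 has 5, Ugt2b1 has 1 and Ugt2b38 has 5. The 8 matched Ugt1a promoters held 21 TTAA and the 10 Ugt2 promoters 25. Among all 32851 promoters of the table, 49.0% held at least 1 TTAA, with a mean of 0.855 per promoter against 2.56 in the UGT promoters. The SB target TA occurred 17.3 times per UGT promoter on average, against 9.88 in all promoters. UGT promoters were also rich in A and T, with a median of 65.2% against 47.6%. Of 14881 promoters within the UGT range of 48.8% to 69.6% A and T, 69.5% held TTAA, with a mean of 1.32. The low end of that range is the Ugt1a6a promoter. Only the range was matched, and not the A and T content within it. A match is a description of these letters and not an integration site.

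Both windows were denser in sites than their surroundings in PB and in SB, and the Ugt1a window was the denser of the pair. Density is given as sites per Mb per 10000 nuclear sites of a liver, which takes out the size of the liver's list. In the Ugt1a window the PB livers ran from 17.1 (liver 13) over a median of 26.7 to 43.0 (liver 17), with a mean of 27.5 ± 5.53 (SD, n = 17). SB livers ran from 8.04 (liver 10) over 11.3 to 15.3 (liver 13), with a mean of 11.4 ± 2.43 (SD, n = 13). Every PB liver thus lay above every SB liver, and the mean was 2.41 times as high in PB. Without SB liver 13 the SB mean was 11.1 ± 2.22. Such a gap between the groups was found in 0.668% of 23967 autosomal windows of 400 kb, and nothing is read from this, since density chose the windows.

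The flanks, 2 Mb on each side, did not show that gap. Flank density of the Ugt1a window was 5.07 ± 0.675 in PB and 5.41 ± 0.297 in SB, and the ranges overlapped. The log2 ratio of window to flanks was 2.43 ± 0.37 in PB (SD, n = 17), which is 5.38-fold, and 1.05 ± 0.29 in SB (SD, n = 13), which is 2.07-fold. The mean log2 ratio was 1.38 higher in PB. Without SB liver 13 the SB ratio was 1.03 and the difference 1.40. With every position dropped that several livers of a group share, the PB ratio was 1.44 and the PB minus SB difference 0.44. That setting discards many PB sites and few SB sites.

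In the Ugt2 window the PB livers ran from 11.4 (liver 14) over a median of 17.3 to 20.5 (liver 13), with a mean of 17.4 ± 2.04 (SD, n = 17). SB livers ran from 4.09 (liver 13) over 8.73 to 12.8 (liver 3), with a mean of 8.90 ± 2.24 (SD, n = 13). The groups overlapped through PB liver 14, and 16 of 17 PB livers lay above every SB liver. The mean was 1.96 times as high in PB. Among 23853 autosomal windows of 1000 kb, 0.847% had every PB liver above every SB liver, which the Ugt2 window did not. Again nothing is read from that share. Without SB liver 13 the SB mean was 9.30 ± 1.78.

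Ugt2 flanks held 5.09 ± 0.289 in PB and 3.92 ± 0.476 in SB. Unlike the flanks of Ugt1a, they were 1.30 times as dense in PB as in SB. The log2 ratio of window to flanks was 1.77 ± 0.18 in PB, 3.40-fold, and 1.14 ± 0.38 in SB, 2.21-fold, a difference of 0.62. Without SB liver 13, the lowest of SB at 0.415, the SB ratio was 1.20 and the difference 0.56. With shared positions dropped the PB ratio was 1.22 and the difference 0.14.

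**Figure D1:**
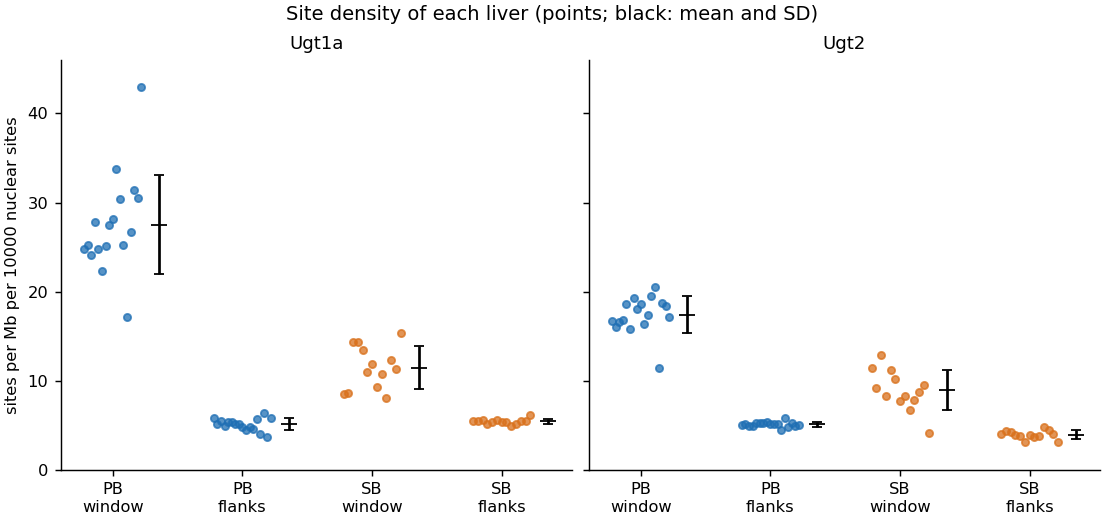
Site density of the Ugt1a and Ugt2 windows and of their flanks (vertical axis, sites per Mb per 10000 nuclear sites) in each PB liver (blue) and SB liver (orange), with the mean and SD in black. In the Ugt1a panel the PB windows sit between 17.1 and 43.0 and the SB windows between 8.04 and 15.3, while the flanks of both groups lie near 5.

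The windows also stood high among all windows of their length on the autosomes, laid every 100 kb. No autosomal window of 400 kb had a higher mean PB density than the Ugt1a window, which held 9.45 times the median of 2.91. For SB, 6 windows were denser, and Ugt1a held 3.08 times the median of 3.72. The Ugt2 window was exceeded in PB by 1 window of 1000 kb, which overlapped it, and held 4.90 times the median of 3.55. For SB, 84 windows were denser than Ugt2, which held 2.32 times the median of 3.83. High density at the UGT clusters was therefore shared by both vectors, with a higher rank in PB. As density chose the windows, these ranks describe the choice.

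The flanks were uneven. Before the Ugt1a window the density was 7.59 ± 1.00 in PB and 7.05 ± 0.496 in SB, and after it 2.54 ± 0.732 and 3.78 ± 0.526. Around the Ugt2 window the order was opposite, with 2.23 ± 0.367 in PB and 2.41 ± 0.523 in SB before it and 7.94 ± 0.647 and 5.43 ± 0.852 after it. Each window lay above its denser flank in all livers of both groups, except that 12 of 13 SB livers did so for the flank after Ugt2. PB density was 27.4 ± 5.91 in the last 100 kb of the Ugt1a window and 3.97 ± 3.05 in the next 100 kb, against 11.4 ± 5.74 and 3.87 ± 2.75 in SB. The PB density of that last stretch comes from its first 2 steps of 10 kb, and it drops inside the window, from 119 in the step from 88210001 to 9.33 in the step from 88220001 and to between 0.485 and 3.15 in the later ones. In these last 8 steps SB was denser than PB. At its near edge PB density was 12.9 ± 4.42 in the 100 kb before the window and 19.4 ± 6.42 in the first 100 kb inside. The Ugt2 window held few sites at its far edge, with 2.63 ± 1.86 PB sites per Mb per 10000 in the last 100 kb inside and 1.66 ± 1.48 just outside. At its near edge the PB densities were 4.83 ± 3.25 outside and 10.5 ± 6.17 inside.

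Within the windows the sites of PB were gathered in a few steps of 10 kb, and those of SB were spread more evenly. The densest 10% of steps held 37.9% of the PB records and 26.0% of the SB records of the Ugt1a window. In the Ugt2 window these shares were 40.4% and 20.2%. The flanks showed the same contrast between the vectors, with 46.3% in PB and 24.0% in SB around Ugt1a and 51.8% and 29.1% around Ugt2, so it is not particular to the windows. A flank step of Ugt2 reached 109 in PB, above every step of its window. PB hit 4 of 40 Ugt1a steps and 5 of 100 Ugt2 steps in all 17 livers, and SB hit no step in all 13. SB liver 13, with 3 Ugt1a and 2 Ugt2 sites, could hit hardly any step. Without it, SB hit the Ugt1a step from 88140001 and the Ugt2 step from 87050001 in all 12 remaining livers. A density over 50 was reached by 5 Ugt1a and 7 Ugt2 steps in PB and by none in SB, whose densest step, at 33.7, lay in the Ugt1a window. Ranking steps on the same records that are then counted raises these shares, more so in the group with fewer records.

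The peak of the Ugt1a window was a pair of neighbouring steps. From 88200001 to 88210000 on chromosome 1, PB livers ran from 35.6 over a median of 126 to 194, with a mean of 132 ± 39.6 and 163 records in all 17 livers. SB livers ran from 0 over 9.64 to 68.6, with a mean of 20.8 ± 25.2 and 17 records in 7 of 13 livers. The PB values were high throughout, although the highest SB livers reached into the PB range. The next step, from 88210001 to 88220000, held 119 ± 39.8 in PB (132 records, 17 livers) and 21.1 ± 18.4 in SB (21 records, 9 livers). There the lowest PB liver stood at 68.3 and the highest SB liver at 56.2. PB livers held 3 to 12 sites in this step and SB livers 0 to 5. The step was named for its PB density, and the share of all 10 kb steps with such a gap was not computed. Nothing is therefore read from the gap.

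The third step of the PB order, from 88140001 to 88150000, was at the same time the densest of SB. PB held 108 ± 45.3 (128 records, 17 livers) and SB 33.7 ± 18.5 (35 records, 12 of 13 livers). Here both vectors met, at 3.20 times the density in PB. The PB steps that followed had little SB. From 88030001 to 88040000 PB held 79.4 ± 46.8 (80 records, 17 livers) and SB 5.09 ± 5.83 (6 records in 6 livers), and from 88060001 to 88070000 PB held 51.4 ± 22.2 (64 records, 16 livers) and SB 3.90 ± 6.19 (4 records in 4 livers).

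Other steps of the Ugt1a window leaned to SB. From 88230001 to 88240000 SB held 24.3 ± 21.8 (23 records in 11 livers) and PB 3.15 ± 8.57 (6 records in 3 livers), although this step begins only 10 kb after the PB peak ends. From 88180001 to 88190000 SB held 28.4 ± 23.1 and PB 11.99 ± 11.01, and from 88170001 to 88180000 SB held 15.02 ± 15.6 and PB 5.76 ± 9.01. These are small numbers of sites, with an SD over livers close to the mean in SB and close to or above it in PB. The step from 88000001 to 88010000, second in SB at 30.1 ± 54.3, rested on 1 site of SB liver 13, which alone counts 204, and without that liver it held 15.6 ± 14.9 and stood at rank 11.

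The densest PB step of the Ugt2 window was almost empty in SB. From 87520001 to 87530000 on chromosome 5, PB livers ran from 35.6 over a median of 97.1 to 183, with a mean of 101 ± 40.9. The 130 PB records lay at 57 different positions in all 17 livers. The 13 SB livers held 1 record there, a mean of 0.989 ± 3.57. This step was hit in every PB liver, by 1 to 19 sites with a median of 9, and the lowest PB value of 35.6 is a single site. It holds no site in 12 of the 13 SB livers, and its PB records do not rest on a single reused position.

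A second step of this kind ran from 87680001 to 87690000, with 76.5 ± 33.0 in PB (96 records at 26 positions, 17 livers) and 1 record in SB (2.20 ± 7.94). The other leading PB steps held more SB sites. From 87230001 to 87240000 the densities were 92.1 ± 41.4 in PB (98 records, 17 livers) and 7.79 ± 12.3 in SB (8 records, 5 livers). From 87070001 to 87080000 they were 78.2 ± 40.1 (91 records, 17 livers) and 6.37 ± 8.997 (6 records, 5 livers). From 87710001 to 87720000 they were 77.9 ± 45.4 (97 records, 15 livers) and 17.1 ± 19.0 (17 records, 7 livers). This last step was missed by 2 PB livers and was the least one-sided of these 5.

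SB had no comparable peak in the Ugt2 window. Its highest means, 26.0 ± 55.2 from 87640001 and 24.8 ± 55.3 from 87740001, each rested on 1 site of SB liver 13. Without that liver the densest SB steps began at 87050001, with 24.98 ± 12.5 in all 12 remaining livers, at 87200001, with 24.3 ± 23.7, and at 87130001, with 22.3 ± 14.9. PB held 45.6 ± 26.7, 8.22 ± 11.2 and 18.1 ± 18.7 in these steps. The largest SB excess was the step from 87200001, at 22.5 ± 23.7 in SB over all 13 livers. It was followed by the steps from 87550001, with 15.1 ± 19.5 in SB and 3.17 ± 5.22 in PB, and from 87320001, with 18 SB records in 8 livers and 9 PB records in 7 livers.

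**Figure D2:**
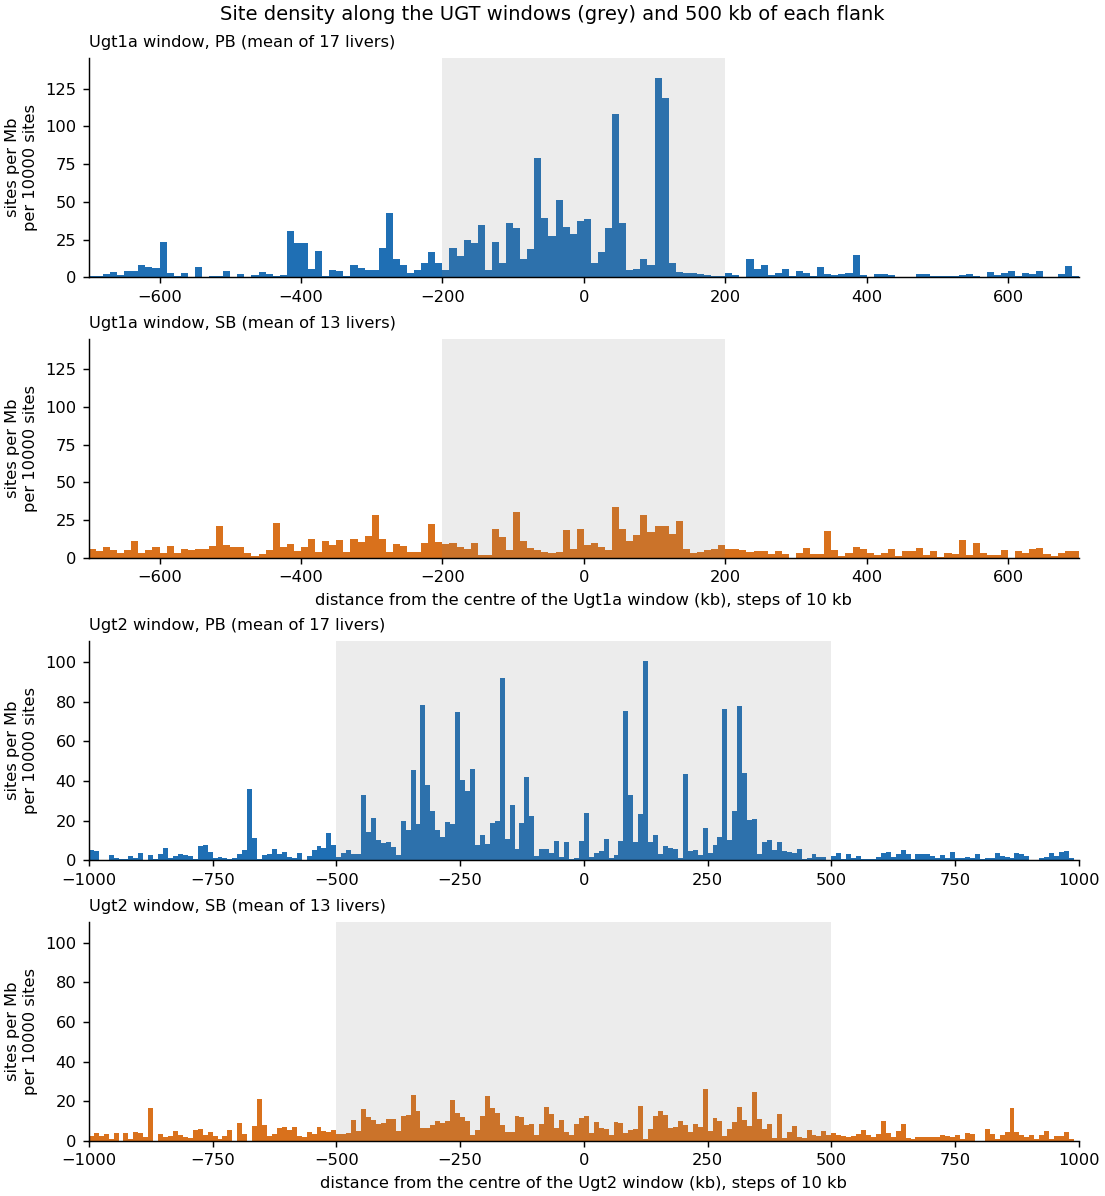
Mean site density (vertical axis, sites per Mb per 10000 nuclear sites) in steps of 10 kb along both UGT windows (grey) and the nearest 500 kb of each flank, as distance from the window centre in kb, for PB (blue) and SB (orange). PB peaks reach 132 in the Ugt1a and 101 in the Ugt2 window, while no SB step passes 33.7. The SB bars of the Ugt2 window at 245 and 345 kb rest on SB liver 13.

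Counted over steps with at least 10 records, PB was at least 2-fold denser in 17 of 34 Ugt1a steps (50%) and in 24 of 84 Ugt2 steps (28.6%), against 28.9% of 68316 autosomal steps. SB was at least 2-fold denser in 6 Ugt1a steps (17.6%) and in 14 Ugt2 steps (16.7%), against 23% of autosomal steps. The Ugt2 share for PB was near that of the autosomes. The windows were chosen on this contrast, and no support is taken from these counts.

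Step profiles were also compared between sets of livers, as records per step summed over the livers of a set. They are built on the densities that chose the windows. No r was computed for the flanks, so these values are not read as particular to the windows. Between PB livers 1 to 12 and PB livers 13 to 17, Pearson's r was 0.88 over the 40 Ugt1a steps and 0.88 over the 100 Ugt2 steps. Between odd-numbered and even-numbered PB livers it was 0.96 and 0.92, and between odd-numbered and even-numbered SB livers 0.58 and 0.30. SB profiles rest on 419 and 882 records, those of all PB livers on 1327 and 2161, and those of PB livers 13 to 17 on 146 and 215. The part of record number in these values of r was not tested. Between PB and SB r was 0.36 (Spearman's rho 0.10) in the Ugt1a window and 0.09 (rho 0.37) in the Ugt2 window. Steps share their livers and are not independent, so these values describe the profiles and carry no p.

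The same base positions were hit in many PB livers. The Ugt1a position found in most livers lay on chromosome 1 from 88213525 to 88213528, in 16 of 17 PB livers, with 12 plus-strand and 15 minus-strand records. The position from 88142375 to 88142378 followed with 15 livers, that from 88142020 to 88142023 with 13, and those from 88206759 to 88206762 and from 88207284 to 88207287 with 12 each. All of these lie in the 3 densest PB steps and carry both strands. A neighbour of the first position, from 88213520 to 88213523, was listed in 11 livers, always on the minus strand, and 10 of these livers also held the first position. Spans of 4 bp that start 5 bp apart do not overlap. Whether both come from the same insertions was not tested.

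The Ugt2 position found in most livers lay on chromosome 5 from 87684108 to 87684111, also in 16 of 17 PB livers, with 14 plus-strand and 11 minus-strand records. It accounts for 25 of the 96 PB records of its step. Next came 87716717 to 87716720 with 12 livers, 87495942 to 87495945 with 11, and 87721315 to 87721318 and 87148625 to 87148628 with 9 each. None of these lies in the densest PB step of the window, from 87520001. SB positions were reused far less. The most was 3 of 13 livers, at chromosome 1 from 88230652 to 88230653 and at chromosome 5 from 87146818 to 87146819 and from 87291253 to 87291254, with both strands at each.

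Of 628 distinct PB positions in the Ugt1a window, 236 (37.6%) occurred in at least 2 livers, against 19.2% in its flanks. In SB 18 of 399 (4.51%) did, against 2.42%. The Ugt2 window had 360 of 1294 in PB (27.8%, flanks 18.4%) and 30 of 849 in SB (3.53%, flanks 1.54%). Reuse was thus higher inside than outside both windows with either vector. Density and reuse are linked by construction, since more sites on the same target positions meet more often, so this is no separate finding.

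Seen from a single liver, 71.5% ± 4.38 of its PB site records in the Ugt1a window lay at positions also found in another PB liver. The range was 64.6% to 80% (n = 17), and the share was 43.6% ± 6.94 in the flanks. A position that a liver lists on both strands counts once for each strand in these shares. For Ugt2 the shares were 57.9% ± 6.37 and 39.2% ± 4.56. In SB they were 8.43% ± 4.32 against 5.24% ± 2.02 for Ugt1a, and 6.53% ± 2.90 against 2.67% ± 2.09 for Ugt2 (n = 13). PB positions in at least 5 livers numbered 49 in the Ugt1a window and 54 in the Ugt2 window. Of these, 4 and 1 had all records on a single strand, against 0 of 47 and 3 of 34 in the flanks. Within single livers, PB positions were listed on both strands 93 times in Ugt1a (1327 records) and 96 times in Ugt2 (2161 records). In SB this occurred 1 time in each window (419 and 882 records). The flank counts of Ugt1a and Ugt2 were 74 and 45 in PB (2505 and 2510 records). In SB they were 8 and 1 (2038 and 1518 records). These counts are not read as a difference between the vectors. An insertion read from either end of the transposon, and insertions of different cells in opposite orientation, are not told apart here.

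SB positions coincided with the middle bases of a PB position in 4 of 399 cases in the Ugt1a window (1.00% of SB and 0.637% of PB positions) and in 4 of 849 in the Ugt2 window (0.471% and 0.309%). Every TTAA contains a TA, so the vectors could share these targets. No share in the flanks and no expected share was computed, so these counts are not read as few or many.

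**Figure D3:**
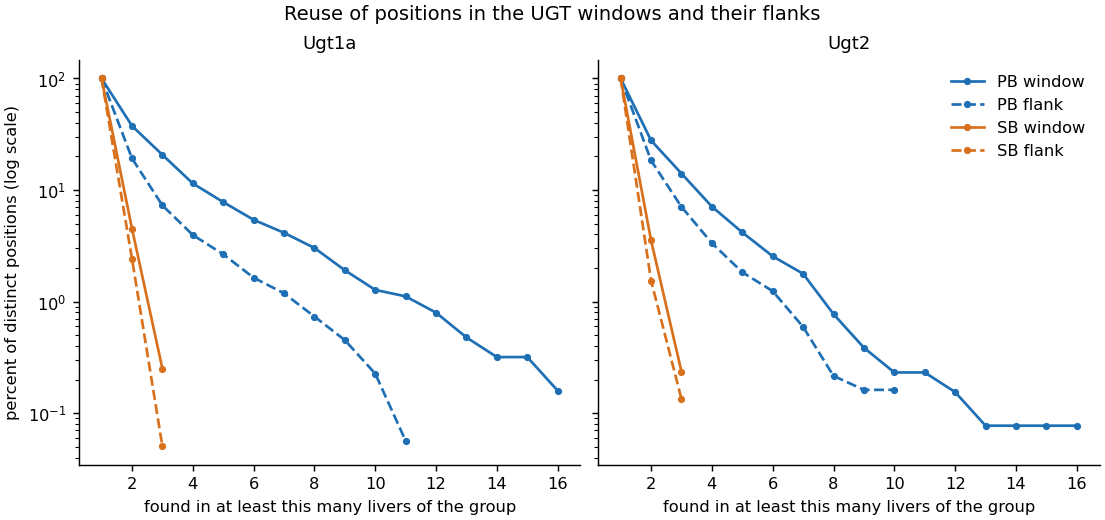
Percent of distinct positions (vertical axis, log scale) found in at least the number of livers on the horizontal axis, for PB (blue) and SB (orange), inside the windows (solid) and in their flanks (dashed). PB lines run to 16 livers in both windows and end at 11 and 10 livers in the flanks, while SB lines end at 3 livers.

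The number in column 4 of the site lists is taken here as the reads behind a site and called support. It was not used to choose the windows. Insertions of different cells at the same position and strand of a liver would share a record, so support may rise with density. Support is therefore not shown to be independent of the choice, and the part of density in the tests below was not tested. For each liver the mean log2 support of window sites was compared with that of its flank sites, where a window held at least 5 sites, which leaves out SB liver 13. Median support of Ugt1a sites ran from 19 over 73 to 176 in PB livers, and that of flank sites from 16 over 65 to 153.5. Ugt1a sites had a higher support than flank sites in 14 of 17 PB livers, by 0.19 ± 0.20 on the log2 scale (SD, n = 17), which is 1.14-fold. Livers ran from -0.06 (liver 11) over 0.08 to 0.57 (liver 16). This difference passed the two-sided sign-flip permutation test (p = 0.00054, adjusted p = 0.0076 over 14 tests), and it was the only one of the 14 to pass.

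The difference was 0.31 ± 0.23 in PB livers 13 to 17 (n = 5) and 0.15 ± 0.18 in PB livers 1 to 12 (n = 12). Median support of Ugt1a sites was also higher in the later livers, at 119 ± 41.9 against 57.2 ± 24.2, and its part in the result was not tested.

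The call did not hold under several other settings. With sites within 10 bp of each other merged the difference was 0.13 (permutation test, adjusted p = 0.062), in livers 1 to 12 alone 0.15 (exact permutation test, adjusted p = 0.10), and with positions shared by several livers dropped 0.21 (permutation test, adjusted p = 0.062). The position from 88213525 carried a median support of 164, and the 3 best supported Ugt1a sites, at 536, 419 and 319 in PB livers 1, 4 and 15, were all plus-strand records of it. Without this position and its neighbours within 10 bp, a setting chosen after the data were seen, the difference was 0.15 (permutation test, adjusted p = 0.12).

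In the other window and vector the differences did not pass. Ugt1a sites of SB differed from flank sites by 0.10 ± 0.23 (n = 12, above 0 in 8 livers, permutation test, adjusted p = 0.37). Ugt2 sites differed by 0.10 ± 0.20 in PB (n = 17, above 0 in 12 livers, permutation test, adjusted p = 0.27) and by 0.14 ± 0.17 in SB (n = 12, above 0 in 10 livers, permutation test, p = 0.017, adjusted p = 0.12). The Ugt2 values did pass under some settings. With a support of at least 10 required they were 0.10 in PB (permutation test, adjusted p = 0.019) and 0.10 in SB (permutation test, adjusted p = 0.043).

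PB and SB were not shown to differ in this measure. The PB minus SB difference was 0.09 for Ugt1a (permutation test, adjusted p = 0.56) and -0.04 for Ugt2 (permutation test, adjusted p = 0.66). Single sites with high support were present in both. The best supported Ugt2 site had 383, on the minus strand from 87347241 to 87347244 in PB liver 3, and the best supported SB sites had 255 in Ugt1a (liver 4) and 273 in Ugt2 (liver 5). Pooled over the records of all livers, sites in the top 1% of their liver made up 3.24% of Ugt1a and 1.76% of Ugt2 records in PB. In SB they made up 1.19% and 1.36%. No share was computed per liver or for the flanks, and the part of the position from 88213525 was not tested. No difference between the vectors is read from these shares.

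Strand showed no difference that passed. The minus strand held 51.9% ± 5.03 of Ugt1a sites and 50.1% ± 6.52 of Ugt2 sites in PB, and 45.5% ± 9.19 and 48.5% ± 15.7 in SB, where SB liver 13, with 2 Ugt2 sites, stood at 0%. Without that liver the SB shares were 46.5% ± 8.81 and 52.5% ± 6.16. Against its flanks the Ugt1a window differed by 1.30 ± 8.35 percentage points in PB (n = 17, permutation test, adjusted p = 0.62) and by -4.32 ± 9.92 in SB (n = 12, above 0 in 2 livers, permutation test, adjusted p = 0.37). The PB minus SB difference was 5.62 points (permutation test, p = 0.11, adjusted p = 0.37). For Ugt2 the differences were 1.74 ± 8.62 in PB and 1.58 ± 7.54 in SB (permutation tests, adjusted p = 0.62 each), and 0.16 between them (permutation test, adjusted p = 0.98). With positions shared by several livers dropped, the Ugt1a differences were larger, at 7.12 points in PB (permutation test, p = 0.061, adjusted p = 0.17) and 9.98 points for PB minus SB (permutation test, p = 0.056, adjusted p = 0.17), and did not pass either.

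**Figure D4:**
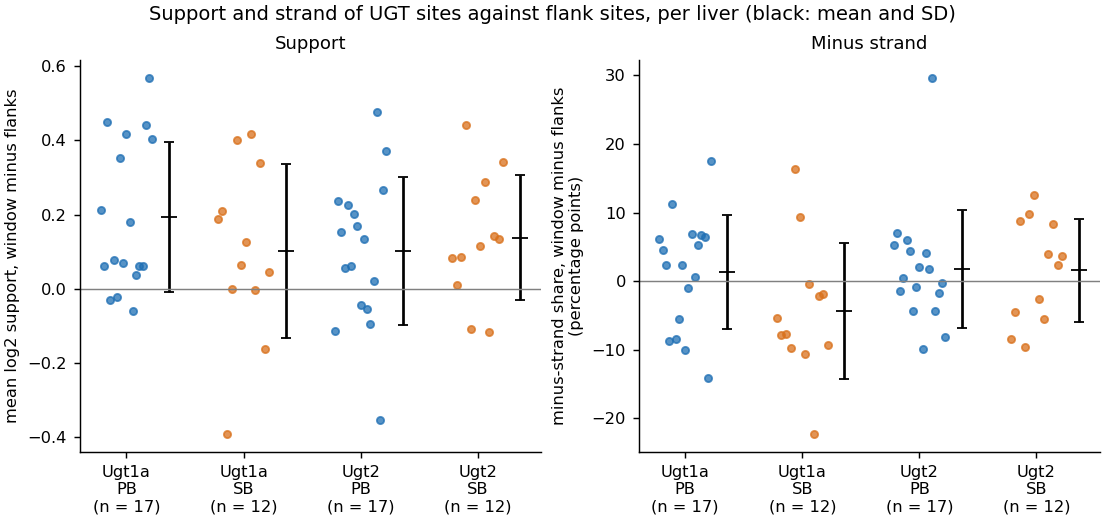
Window minus flank differences of each liver in mean log2 support (left) and in minus-strand share in percentage points (right), for PB (blue) and SB (orange), with the mean and SD in black and a grey line at 0. Only the Ugt1a support of PB, at 0.19 ± 0.20 with 14 of 17 livers above 0, passed the test over livers.

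PB livers 13 to 17, which a deposited merged table of livers 1 to 12 leaves out, allowed a comparison within PB. It is built on the densities known when the windows were chosen, although not as a contrast between these sets. No support is therefore taken from its tests. Their list sizes were smaller, with 16 to 51 sites per liver in the Ugt1a window where livers 1 to 12 had 69 to 144. Ugt1a density was 29.7 ± 9.32 in livers 13 to 17 (SD, n = 5) and 26.6 ± 3.13 in livers 1 to 12 (SD, n = 12). The log2 ratio over the flanks differed by 0.13 (exact permutation test, p = 0.53, adjusted p = 0.62). For Ugt2 the densities were 17.2 ± 3.48 and 17.5 ± 1.27, and the ratio differed by -0.07 (exact permutation test, p = 0.49, adjusted p = 0.62). Both contrasts changed sign when 1 liver was left out, to -0.0065 for Ugt1a without liver 16 and to 0.0502 for Ugt2 without liver 14, so no direction is read from them. Other settings gave larger values that did not pass. Without liver 13 the Ugt1a contrast was 0.36 (exact permutation test, p = 0.047, adjusted p = 0.20). With positions shared by several livers dropped the Ugt2 contrast was -0.46 (exact permutation test, p = 0.015, adjusted p = 0.071).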

How the data were processed

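Insertion sites were listed for 17 PB and 13 SB livers, grouped by the labels. Per the submitters' processing notes, cutadapt, BWA and GRCm39 were used, without versions given. The deposited table of each liver gives chromosome, start, end, strand and a whole number in column 4, taken as a count of reads and called support. Its meaning is not given in the sources used here. The smallest deposited count was 3, so weaker sites are not seen. A PB site covers 4 bp and an SB site 2 bp. The labels' protocols name no molecular identifiers, so reads do not stand for separate molecules. The sequencing depth is not given in the sources used here, so list size is the only depth shown.

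The windows, gene lists and rules were chosen with earlier results of these data known. Densities are sites per Mb per 10000 nuclear sites, averaged over livers. Named by rule were, for each window and group, the 5 densest steps and the 5 positions found in most livers, the 3 steps with the largest difference each way, and the 3 best supported sites. Support and strand were compared with flank sites per liver (at least 5 sites) by two-sided permutation tests (100000 resamples or all patterns), and 14 tests were adjusted together by the Benjamini-Hochberg method at 0.05. These computations were tested on simulated data. Python 3.11.15, numpy 2.4.6, pandas 2.3.3, scipy 1.17.1 and matplotlib 3.10.9 were used. Alternatives covered livers 1 to 12, SB liver 13, support of at least 10, merging within 10 bp, positions in more than 1 liver, flanks of 1 Mb, strand, step length, medians, other comparison sites and the liver number as a block.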

Additional observations from a re-analysis of the deposited data

Results flagged for a closer look

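A pair of values stood apart from the others among PB livers 13 to 17, the only set of 4 to 10 livers that was screened for this. In the Ugt2 window, PB liver 14 had a log2 ratio of density over the flanks of 1.25, where the nearest of the other livers stood at 1.77. It is also the liver through which PB and SB overlap in Ugt2 density. PB liver 13 had a minus-strand share in the Ugt2 window 29.6 percentage points above that of its flanks, where the nearest of the others stood at -0.21. Density, its log2 ratio over the flanks, the support difference and the strand difference were each screened in both windows. Chance alone marks about 1 in 20 such sets if values are normally spread, so screening several sets makes a mark more likely. These values rest on 29 or more sites per liver in the window.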

How the results depend on the processing

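Of 189 alternative values for 28 results, 164 changed neither direction nor call, or moved by less than the spread over livers. Dropping positions shared by several livers discards more PB than SB sites by construction. PB density then was 12.8 in Ugt1a and 12.04 in Ugt2. The log2 ratio over flanks was 1.44 and 1.22 in PB, and PB minus SB 0.44 and 0.14. The PB support difference of Ugt1a no longer passed in livers 1 to 12 (0.15), with sites within 10 bp merged (0.13), with shared positions dropped (0.21) and without the position found in most PB livers and its neighbours (0.15, added after seeing the data). Its adjusted p ran from 0.00084 to 0.12 over all settings (permutation tests). Ugt2 support newly passed with a support of at least 10 (0.0951 in PB and 0.10 in SB), with flanks of 1 Mb (0.17 in SB) and against all other nuclear sites (0.14 in PB). Signs turned for differences near 0 that passed in neither form. Ugt2 minus-strand PB minus SB was -0.38 in livers 1 to 12, -0.81 with sites merged and -0.31 with flanks of 1 Mb. The Ugt1a minus-strand difference of PB was -0.48 with flanks of 1 Mb. Support PB minus SB was -0.026 in Ugt1a with medians and 0.026 in Ugt2 against all other sites. Leaving out 1 of PB livers 13 to 17 gave -0.0065 to 0.36 for Ugt1a and -0.12 to 0.0502 for Ugt2. Steps of 20 kb put 31.6% of Ugt2 PB records into the densest 10% of steps, and steps of 5 kb 46.6%. Apart from the removals named, the cause was not tested.

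Livers of the same number were not taken to pair: none of 13 pairs correlated above 0.1 (range -0.05 to 0.07), and 1 PB liver correlated best with its own number. With the replicate block the Ugt2 minus-strand difference was -0.38 (exact permutation test, adjusted p = 0.88), the density differences were 1.28 for Ugt1a and 0.65 for Ugt2, and no call changed. Not run were sites per TTAA or TA and sites by gene part, which need a GRCm39 genome. Small lists limit SB steps, and a step mean of SB liver 13 rests on single sites.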
